A study of Homo sapiens with 12 samples.

Results

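The uveal melanoma cell line 92.1 was compared after 72 h of exposure to berzosertib (VE-822), which blocks the kinase ATR, with the same line after 72 h in the solvent DMSO. The comparison used 3 libraries a group, 6 of the 12 libraries of the series, and all 44938 features with a read in the 92.1 count table. Of these, 22943 had enough reads to be tested. The other 6 libraries come from MP38, another uveal melanoma line, and enter only where the responses of the lines are set against each other. The dose of VE-822 is not given in the labels; it was chosen to leave about 40% of cells viable when they were lysed. RNA was taken directly after exposure, and libraries were made from poly(A) RNA. Whether replicate libraries stem from separate cultures is not stated, so p-values measure the spread between these libraries, which may be technical. 92.1 was grown from a primary tumour of the eye and carries an activating mutation of GNAQ, and its libraries describe a single line.

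ATR is the kinase that senses stretches of single-stranded DNA at stalled replication forks. Through its effector kinase CHEK1 it holds back new replication origins and entry into mitosis, and when it is inhibited cells can carry damaged DNA into division. In cells with working p53, DNA damage raises p53 target genes such as CDKN1A, the CDK inhibitor p21, and the RB and DREAM complexes then repress the genes of the cell cycle. The melanocyte lineage was plain in every library. The melanosome protein PMEL read at least 6347 CPM in every library (counts scaled to a common library total, so that each value is a share of its library), at 6852 to 6941 under VE-822, and the pigment enzyme TYRP1 11080 to 11220 and 11430 to 11740. Markers of other cell types were at or near 0. The 8 immune markers summed to 0.664 to 0.906 CPM in DMSO and 1.08 to 1.43 in VE-822, the 7 endothelial markers to 0.914 to 1.28 and 0.973 to 1.22, and the 8 fibroblast markers to 4.98 to 6.01 and 7.84 to 8.36. Of the 8 epithelial markers 7 stayed below 1 CPM in every library, while the splicing factor ESRP1 read 41.9, 43.1 and 61.0 CPM in DMSO 1 to 3 and 92.3, 92.9 and 89.9 in VE-822 1 to 3.

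The DMSO libraries held 112374503 to 123705501 counts and the VE-822 libraries 113370680 to 137664800. The first principal component, 69.8% of the variance, parted the treatments, and the next, 13.6%, set DMSO 3 apart from the other 5 libraries. DMSO 3 differed from DMSO 1 and 2 by a chi-square per gene of 87.9 and 89.7, against 4.51 to 8.48 between other replicates. Counts of called genes are therefore given with and without it below. Values of single genes without it are given for part of them, and none of the genes called with all libraries and named below lost its call or changed direction without it. More features had a read in VE-822 (37510 to 38134) than in DMSO (31684 to 32494), although VE-822 3 and DMSO 1 were of nearly the same depth. Mitochondrial transcripts took 10.3% to 10.6% of counts in VE-822 and 9.11% to 9.32% in DMSO.

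DMSO 3 carried high levels of genes that the transcription factor ATF4 turns on when amino acids run short. DDIT4, an inhibitor of mTORC1, read 104 CPM there against 4.07 and 3.53 in DMSO 1 and 2. The cystine transporter SLC7A11 read 253 CPM against 13.03 and 12.9, and asparagine synthetase ASNS 35.2 against 2.60 and 1.81. The glutathione-degrading enzyme CHAC1, the cysteine-making enzyme CTH and the mitochondrial PCK2 were 6.85, 10.1 and 8.18 times their mean in the other 2 libraries. Genes of cholesterol synthesis went the other way. HMGCS1, the synthase of the mevalonate pathway, read 317 CPM in DMSO 3 against 851 and 812. DMSO 3 also lay nearer to VE-822 in several genes of S phase, with E2F1 at 35 CPM against 64.6 and 61.8, and in the noncoding RNA NEAT1, at 3458 against 2008 and 2042.

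**Figure D1:**
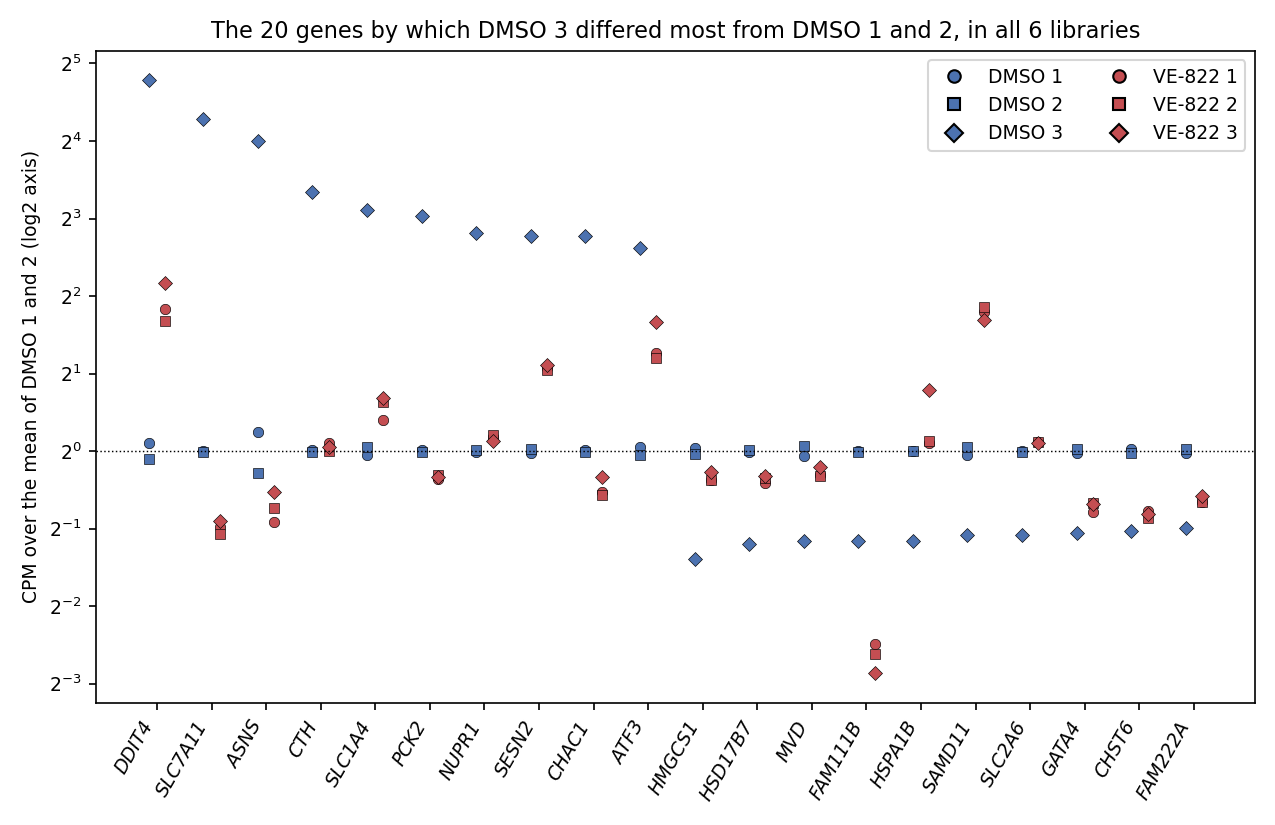
The 10 genes highest and the 10 lowest in DMSO 3 relative to the mean of DMSO 1 and 2, chosen for that ratio. The vertical axis is each library's CPM divided by that mean on a log2 axis, with DMSO in blue and VE-822 in red, and DMSO 3 stands alone for the 10 genes on the left while DMSO 1 and 2 sit together.

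With all 6 libraries, 4658 genes were higher in VE-822 (20.3% of those tested) and 4498 lower (19.6%) at an adjusted p under 0.05 in edgeR's quasi-likelihood test, 39.9% in either direction. A log2 difference of 1 or more was seen in 1759 of the higher and 737 of the lower genes. In the fit that leaves DMSO 3 out, 6377 were higher (26.8%) and 6899 lower (29%) of 23816 tested, 55.7% in either direction, and 2249 and 847 of them by 1 or more. The calls shared by both fits were 4471 higher and 4470 lower, and no gene was called in opposite directions. The 2 fits share 5 libraries, so this overlap is not independent support. Scaled by library size alone, the split of calls moved from 50.9% higher to 61.7% higher, with a shift of 0.07 (log2) in the median over all genes. In all, 1955 genes passed the filter on low counts through the VE-822 libraries only, and they hold 919 of the higher calls, since such genes could hardly be lower.

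The direction of calls went with the level of the gene in the fit of all genes tested. Among the 8692 genes with a mean below 1 CPM, 21.8% were higher and 4.25% lower, with a median log2 fold change of 0.29. Among the 1995 genes of at least 100 CPM, 13.9% were higher and 42.1% lower, with a median of -0.13. Without DMSO 3 these medians were 0.33 and -0.17. Of 11110 genes with a mean of 5 CPM or more, 1834 were higher and 3761 lower in the fit of all genes. When such genes were fitted alone, 2915 were higher and 2802 lower, with a median shift of 0.09 (log2). The excess of lower calls at high levels thus depended on which genes were fitted together. The class below 1 CPM lies nearest the filter's cut of 0.0822 CPM. Its split and median can thus be partly set by genes that passed through 1 group only. Of these, 1955 passed through VE-822 (919 higher, 0 lower) and 432 through DMSO (0 higher, 112 lower). Among 19802 genes that passed in both groups, 3738 were higher and 4386 lower. Long noncoding RNAs, mostly low and under the same limit, had 1009 of 5280 higher and 288 lower. They took 2.80% to 2.84% of counts in VE-822 against 1.83% to 2.33% in DMSO. CPM values are shares of a library, so a change in RNA per cell and in the mix of cells cannot be told apart here.

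**Figure D2:**
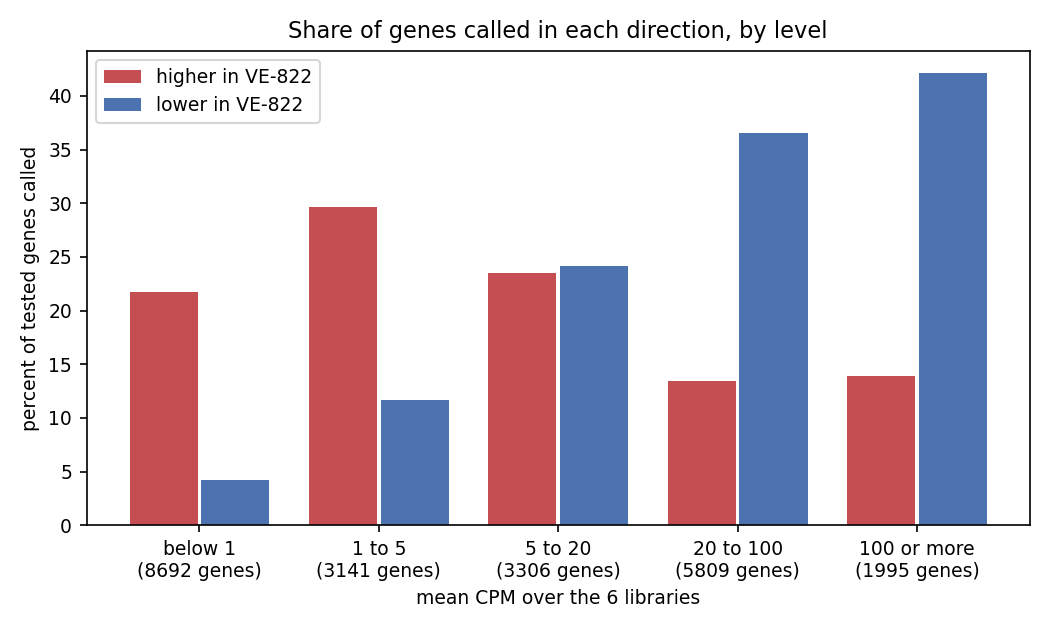
Percent of tested genes called higher (red) or lower (blue) in VE-822, for 5 classes of mean CPM over the 6 libraries. Higher calls outnumber lower ones below 5 CPM, the shares are close at 5 to 20 CPM, and lower calls outnumber higher ones from 20 CPM upward.

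Genes of DNA synthesis and of mitosis were lower in every VE-822 library. All 43 S phase genes of a published cell cycle list were lower, with a median log2 fold change of -1.74, and all 54 genes of its G2/M list, with a median of -1.82, beside a median of 0.03 over all genes tested. Without DMSO 3 the counts were again 43 and 54, with medians of -1.97 and -1.87. The summed level of the S phase genes was 4696, 4615 and 3389 CPM in DMSO 1 to 3 and 1445, 1390 and 1262 in VE-822 1 to 3. The summed G2/M genes were 6805, 6671 and 6455 CPM and 2485, 2423 and 2211. DMSO 3 was thus lower than its fellows in S phase genes while close to them in G2/M genes, and VE-822 3 was the lowest library in both.

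Among the S phase genes, CENPU, a centromere protein, fell from 92.5, 91.4 and 83.6 CPM to 17.2, 16.5 and 13.6, a log2 fold change of -2.50 ± 0.0936 (SE; n = 3 in each group, or 2 DMSO libraries where DMSO 3 is left out). PRIM1, the primase that starts each new DNA strand, fell from 48.5, 45.9 and 49.5 CPM to 11.2, 11.6 and 10.5. EXO1, a nuclease of mismatch repair and end resection, fell from 133, 128 and 91.3 CPM to 23.2, 22.6 and 18.1. The groups did not overlap for any of these. DTL, which steers the licensing factor CDT1 to destruction, had a log2 fold change of -2.42 ± 0.127 (-2.59 without DMSO 3), and RAD54L, a motor protein of homologous recombination, of -2.38 ± 0.157 (-2.56).

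Among mitotic genes, the proliferation marker MKI67 read 299, 290 and 263 CPM in DMSO and 65.3, 64.9 and 51.0 in VE-822, a log2 fold change of -2.23 ± 0.101 (-2.32 without DMSO 3). TOP2A, which untangles sister chromatids, fell from 481, 470 and 554 CPM to 127, 122 and 100 (-2.11 ± 0.101, and -2.06 without DMSO 3). KIF23, the cytokinesis motor, fell from 115, 116 and 116 CPM to 37.5, 35.1 and 33.2. The kinetochore subunit SPC25 fell by 2.44 on the log2 scale, the centriole kinase PLK4 by 2.39, the spindle motor KIF15 by 2.37 and the kinetochore protein SKA3 by 2.35.

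ATR itself did not pass the test. It read 46.5, 44.8 and 50.5 CPM in DMSO and 45.0, 45.7 and 45.0 in VE-822 (adjusted p = 0.421, and 0.304 without DMSO 3), and the groups overlapped. CHEK1, the kinase that ATR activates, fell from 44.0, 44.8 and 36.5 CPM to 12.3, 11.9 and 10.1, a log2 fold change of -1.87 ± 0.104 (-1.99 without DMSO 3). VE-822 blocks the enzyme and not its transcript, so the level of ATR does not check the labels.

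**Figure D3:**
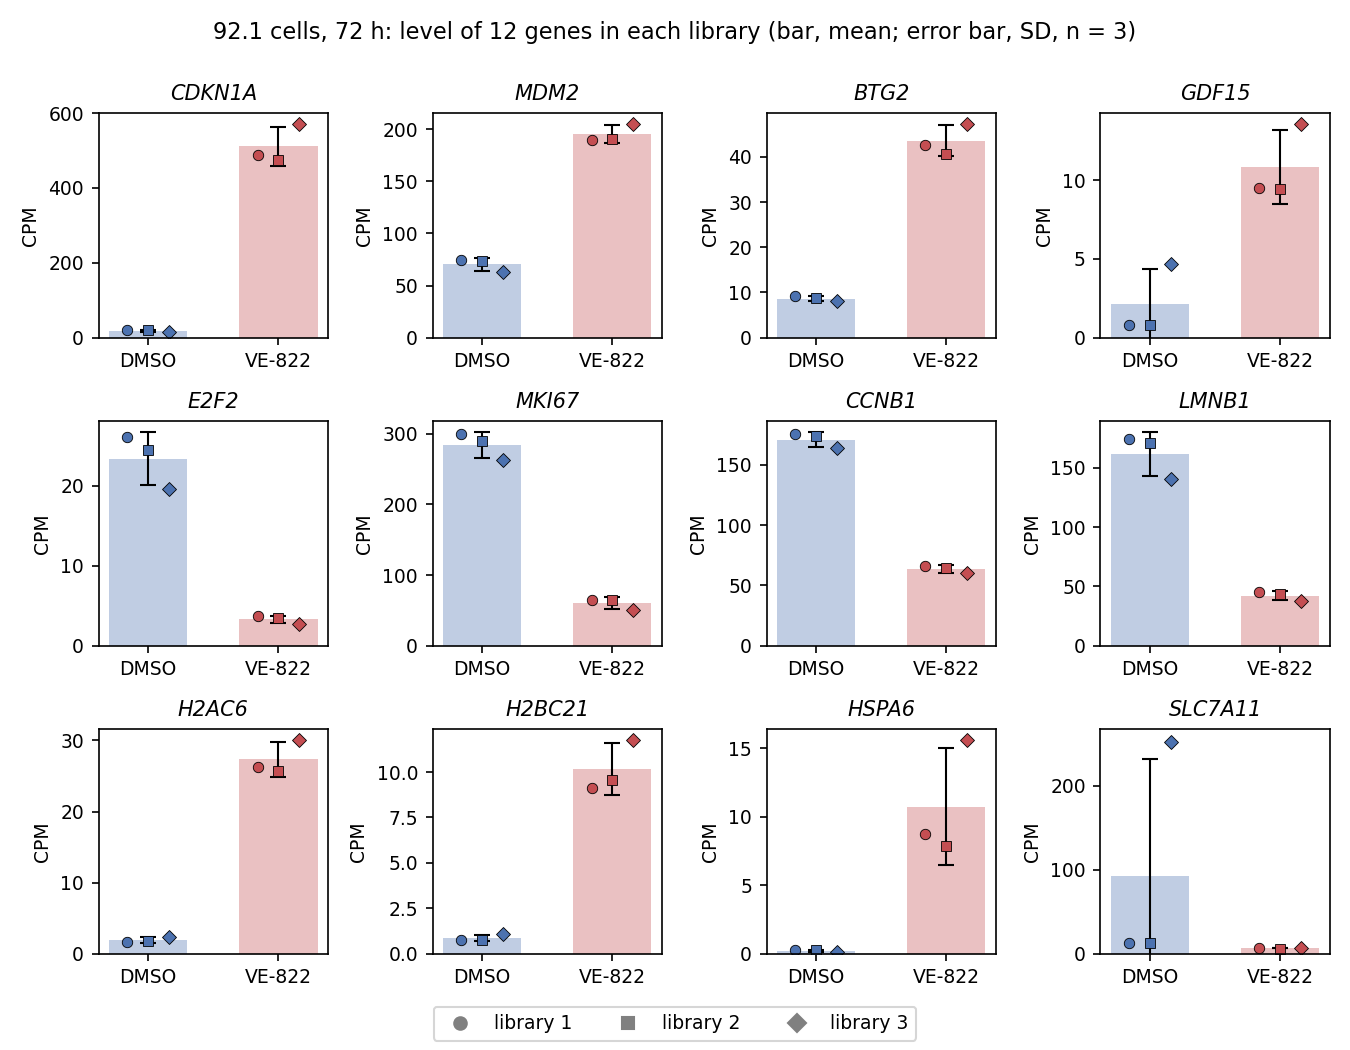
Level of 12 genes in CPM, with bars for the mean, error bars for the SD over 3 libraries and a point for each library. The groups do not overlap in any panel, DMSO 3 is the outlying control for GDF15 and SLC7A11, and VE-822 3 is the highest treated library for HSPA6 and CDKN1A.

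Promoters of the genes that fell are shown because known elements of cell cycle promoters could be read in them. RefSeq windows from 250 bases before to 50 after the start (GRCh38.p14) were matched by symbol to 12768 of 22843 gene symbols tested. Exact letters were searched on both strands: TTTGAA or TTCGAA for the CHR, the element bound by the MuvB core of DREAM, GCGGGAA or GCGCGAA for E2F, CCAAT for the NF-Y box, and GAA, TTC and GAA, or TTC, GAA and TTC, each 2 free bases apart, for the heat shock element. Matches of different patterns were allowed to overlap, and TTCGAA reads the same on both strands. In matched promoters of genes tested, 11.8% held a CHR, 12.9% an E2F match and 36.4% a CCAAT box, and the shares over all 27305 RefSeq promoters were 16.6%, 8.6% and 35.7%. Among 423 matched genes that fell by at least 1 with and without DMSO 3 the shares were 31.9%, 28.6% and 53.9%. Among 814 that rose by at least 1 they were 13.3%, 7.62% and 33%. Of 32 S phase promoters 68.8% held an E2F match and 9.38% a CHR, and of 45 G2/M promoters 13.3% held an E2F match and 73.3% a CHR. These are counts of letters in a window, and no factor was measured on them.

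Stretches before the start with the E2F match in capitals are given for 4 of the 15 most lowered genes, 5′ to 3′ along the gene. Where the capitals read TTCCCGC, the match is on the opposite strand. They lie at chr4:184734277-184734331 (minus strand) for CENPU, chr5:138338495-138338549 (minus) for the CDK1 phosphatase CDC25C, chr1:212035616-212035670 (plus) for DTL and chr1:46247615-46247669 (plus) for RAD54L.
CENPU: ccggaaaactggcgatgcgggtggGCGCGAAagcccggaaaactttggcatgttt
CDC25C: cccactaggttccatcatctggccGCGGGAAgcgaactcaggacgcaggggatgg
DTL: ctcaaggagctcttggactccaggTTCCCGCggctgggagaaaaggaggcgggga
RAD54L: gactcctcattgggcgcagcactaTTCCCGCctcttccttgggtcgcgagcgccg

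The CHR is shown in capitals for 4 mitotic genes described above or below, with TTCAAA where it is on the opposite strand. MKI67 holds 2 copies in its stretch at chr10:128126424-128126476 (minus strand). The others lie at chr3:44761735-44761788 (plus) for KIF15, chr10:60778146-60778199 (plus) for CDK1 and chr17:40418018-40418071 (minus) for TOP2A.
MKI67: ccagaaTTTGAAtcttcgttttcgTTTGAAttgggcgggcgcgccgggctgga
KIF15: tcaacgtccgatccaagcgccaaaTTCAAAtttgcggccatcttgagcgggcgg
CDK1: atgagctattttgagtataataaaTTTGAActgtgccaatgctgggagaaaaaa
TOP2A: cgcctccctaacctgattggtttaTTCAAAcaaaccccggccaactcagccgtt

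Of 17 cyclins, CDKs and CDC25 phosphatases tested, 12 were lower and none higher, and without DMSO 3 the number was 15. The S and G2 cyclin CCNA2 fell from 163, 162 and 159 CPM to 44.3, 41.2 and 36.8, the mitotic cyclin CCNB1 from 176, 174 and 164 to 66.2, 64.4 and 59.9, and CDK1 from 189, 187 and 168 to 53.5, 50.5 and 45.1. Cyclin D1, CCND1, which couples growth signals to the cycle, overlapped between groups at 427 to 455 CPM in DMSO and 408 to 432 in VE-822. It was not called with all libraries (adjusted p = 0.222) and was called lower without DMSO 3 (log2 fold change -0.10). Cyclin E1, CCNE1, read 17.6, 16.1 and 9.80 CPM and then 11.1, 10.1 and 11.1, and it too was called lower only without DMSO 3.

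CDKN1A (chromosome 6, 36676460 to 36687337 in the authors' annotation of GRCh38) was the CDK inhibitor that rose most. It read 19.7, 19.6 and 15.8 CPM in DMSO and 488, 475 and 572 in VE-822, a log2 fold change of 4.8 ± 0.116 (adjusted p = 4.19e-07) and of 4.67 without DMSO 3. Of the 8 CDK inhibitors, 2 were higher and 5 lower, with or without DMSO 3. CDKN2B, the p15 inhibitor of CDK4 and CDK6, rose from 5.85, 5.94 and 5.93 CPM to 8.76, 7.82 and 8.27. Those that fell were CDKN1B (p27), from 76.2, 74.3 and 106 CPM to 52.7, 48.9 and 49.3, CDKN2A, from 27.4, 27.3 and 30.4 to 17.7, 17.7 and 16.3, and CDKN2C, CDKN2D and CDKN3, with log2 fold changes of -1.41, -0.74 and -1.68. CDKN1C was not called. CDKN3 is a phosphatase of CDKs and is itself a gene of the dividing cell.

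Most of the factors that run the cell cycle programme fell. Of 20 E2F, RB family and DREAM genes, 16 were lower and 1, TFDP2, higher (18 and 1 without DMSO 3). The activator E2F2 fell from 26.1, 24.5 and 19.6 CPM to 3.67, 3.40 and 2.75, a log2 fold change of -2.83 ± 0.139. E2F1 fell from 64.6, 61.8 and 35 CPM to 13.2, 12.2 and 11.3. The mitotic activators MYBL2 and FOXM1 had log2 fold changes of -2.08 and -1.90. The repressor side moved unequally: RBL1 (p107) fell by 1.77 on the log2 scale, RB1 by 0.25 and RBL2 (p130) by 0.25, and the repressor E2F4 was not called with all libraries (-0.13). The repressors E2F8, E2F7 and E2F6 fell by 2.74, 1.46 and 0.43. In the MuvB core of DREAM, LIN9 and LIN54 fell by 1.45 and 1.03, and LIN37 was not called. E2F6, E2F7, E2F8 and LIN37 were named after their values were seen. TFDP2 lost its call under size factors from DESeq2 and without each of 5 libraries.

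**Figure D4:**
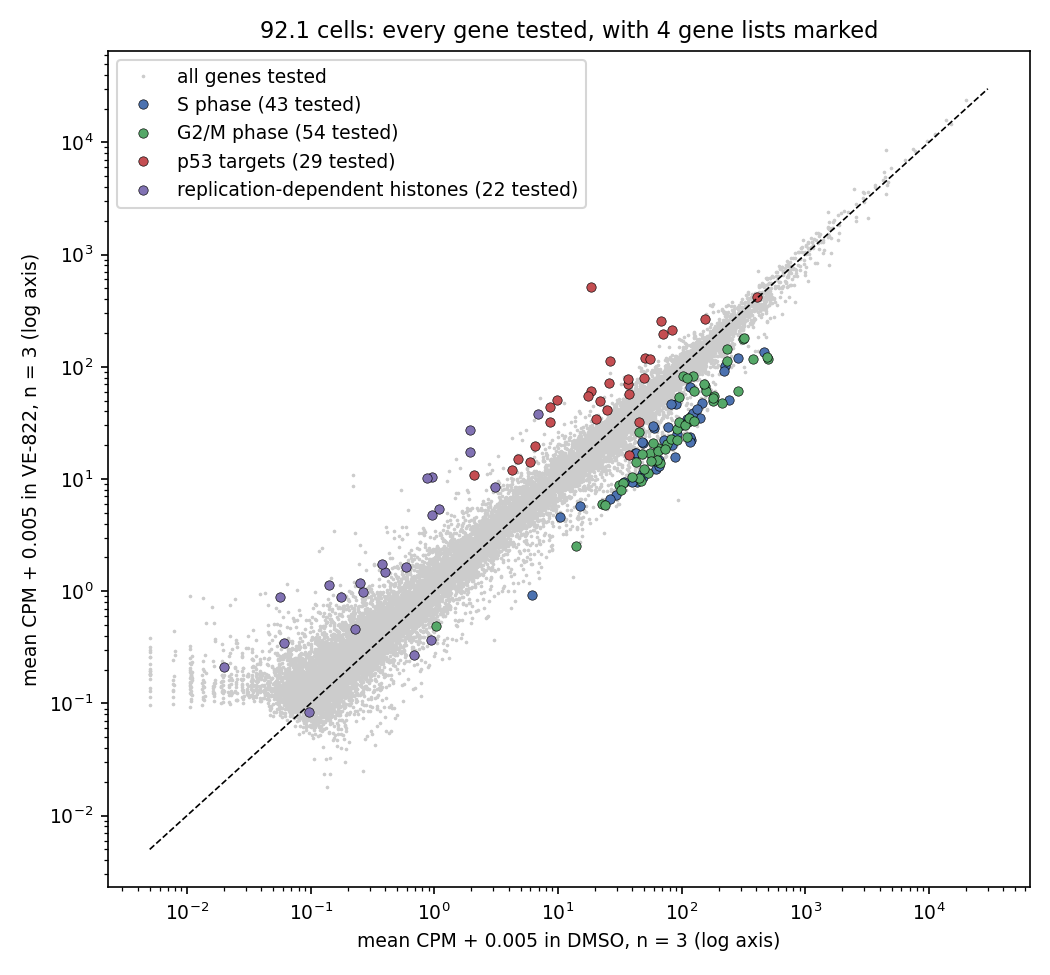
Mean CPM in VE-822 against mean CPM in DMSO for every gene tested, both on log axes with 0.005 added, and the members of 4 lists in colour. S phase and G2/M genes lie below the line of equal level, most p53 targets above it with CDKN1A the farthest and PMAIP1 and SESN2 below it, and tested histone genes mostly above it at low levels.

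Direct targets of p53 rose almost as a block. Of 29 tested, 26 were higher, none lower and 3 not called, with a median log2 fold change of 1.35. Without DMSO 3, 27 were higher, with a median of 1.26. Over all genes tested 20.3% were higher, and 26.8% without DMSO 3. This list, like the others, was chosen with earlier results of these data known. MDM2, the ubiquitin ligase that destroys p53, rose from 74.5, 73.2 and 63.0 CPM to 190, 190 and 205 (1.47 ± 0.0719). EDA2R, a receptor of the TNF family, rose from 9.71, 9.41 and 10.2 CPM to 51.2, 51.3 and 49.9, and PHLDA3, an inhibitor of AKT, from 27.3, 28.7 and 23.9 to 111, 111 and 119. BTG2, which slows proliferation, rose from 9.12, 8.68 and 8.03 CPM to 42.7, 40.7 and 47.4. In each of these the lowest VE-822 library was above the highest DMSO library.

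The 3 p53 targets without a call were CCNG1, PMAIP1 and SESN2, named here after their values were seen. PMAIP1 (NOXA), a BH3-only death gene, read 17.1, 16.99 and 78.0 CPM in DMSO and 15.5, 15.6 and 17.6 in VE-822. The stress sensor SESN2 read 15.2, 15.7 and 106 CPM and then 32.4, 31.9 and 33.2. Its log2 fold change was -0.49 with all libraries and 1.04 without DMSO 3, where it was called higher. GDF15, a secreted stress factor, read 0.804, 0.835 and 4.69 CPM and then 9.51, 9.42 and 13.6, a log2 fold change of 2.35 ± 0.584 (adjusted p = 0.0122) and of 3.69 without DMSO 3. Its call was lost without VE-822 3.

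Of 11 regulators of p53, 2 were higher (MDM2 and the phosphatase PPM1D) and 3 lower, near the 20.3% and 19.6% over all genes. Without DMSO 3 they were 2 and 5, beside 26.8% and 29% over all genes. The p53 homologue TP73, an E2F1 target, fell from 4.27, 4.21 and 2.55 CPM to 1.17, 1.09 and 1.07. MDM4, the partner of MDM2, was not called.

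Among noncoding RNAs, 3 that are known p53 targets are described first. PURPL read 0.219, 0.273 and 0.158 CPM in DMSO and 8.73, 7.83 and 9.31 in VE-822 (5.31 ± 0.167, and 5.09 without DMSO 3). MIR34AHG, the host of the microRNA miR-34a, rose from 14.3, 14.1 and 15.8 CPM to 39.9, 38.3 and 42.0. PINCR was listed at 0, 0.017 and 0 CPM in DMSO and at 0.85, 0.776 and 1.07 in VE-822. It passed the filter through VE-822 alone, and no fold is given against so few reads. Of 21 noncoding RNAs listed by name and tested, 12 were higher and 5 lower (14 and 6 without DMSO 3). Beside them, 20.3% of all genes were higher and 19.6% lower (26.8% and 29% without DMSO 3). The nuclear RNA MALAT1 rose from 3713, 4816 and 5062 CPM to 8928, 8866 and 8000, while H19, an imprinted RNA of growing tissue, fell from 2.02, 2.41 and 1.604 CPM to 0.67, 0.589 and 0.44. NEAT1, the scaffold of paraspeckles, read 3874, 3688 and 3975 CPM in VE-822, a log2 fold change of 0.62 that was 0.89 without DMSO 3, and its call was lost without each of the other 5 libraries.

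Of 26 BCL2 family members, caspases and death receptors tested, 6 were higher and 5 lower, near the 20.3% and 19.6% over all genes, with a median of -0.04. Without DMSO 3 they were 9 and 10, beside 26.8% and 29% over all genes. Those that rose include the p53 targets BAX, a pore former of mitochondria, from 47.1, 58.8 and 46.3 CPM to 116, 113 and 130, BBC3 (PUMA), from 13.1, 12.8 and 26.4 to 55.8, 51.4 and 56.0, and the death receptor FAS, from 5.04, 4.93 and 4.36 to 15.1, 15.4 and 14.7. The inhibitor BCL2L1 rose by 0.33 (log2). BIRC5 (survivin), also a protein of the dividing cell, fell by 1.82. MCL1 was not called, at 248 to 258 CPM in DMSO and 245 to 250 in VE-822.

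Most of the listed nuclear proteins linked to senescence were lower. Loss is not the mark for every member, and those that fell include HMGA1 and HMGA2 (-0.36 and -0.82, log2). Of 13 listed, 12 fell and the lamin LMNA rose (0.15), with and without DMSO 3, and 4 of the 13 are also on the G2/M list. LMNA lost its call without each of 5 libraries. Lamin B1, LMNB1, fell from 175, 171 and 140 CPM to 45.4, 43.4 and 37.6, a log2 fold change of -1.94 ± 0.0994 (-2.06 without DMSO 3). The chromatin protein HMGB2 fell from 206, 204 and 229 CPM to 53.1, 48.6 and 40.2, and HMGB1 from 892, 891 and 721 to 400, 383 and 346. Of 20 genes of chromatin replication and silencing, 17 were lower and 1, EZH1, higher (18 and 1 without DMSO 3). The Polycomb methylase EZH2 fell from 82.8, 80.2 and 64.7 CPM to 36.4, 36.0 and 34.9, the maintenance DNA methylase DNMT1 by 1.33 (log2), and the histone chaperones ASF1B and CHAF1A by 2.05 and 2.00.

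Most secreted factors linked to senescence were low, and those tested changed in both directions. Of 50 secreted factors, 28 were below 1 CPM in every library, and 30 were tested, 3 of them passing the filter only through VE-822. Of the tested, 12 were higher and 5 lower (13 and 9 of 31 without DMSO 3). All genes tested had 20.3% higher and 19.6% lower (26.8% and 29% without DMSO 3). The cytokine LIF was the clearest, at 0.101, 0.17 and 0.174 CPM in DMSO and 3.47, 3.53 and 3.32 in VE-822 (4.52 ± 0.178 on the log2 scale, and 4.61 without DMSO 3). TGFB1 rose from 9.51, 10.2 and 7.46 CPM to 13.97, 14.5 and 14.8, and the protease inhibitor TIMP1 from 38.6, 37.6 and 34.8 to 47.1, 48.2 and 46.0. PLAUR, the urokinase receptor, fell from 8.08, 8.74 and 5.83 CPM to 3.06, 2.77 and 2.64. Some members were abundant. MMP14 read 501, 484 and 458 CPM in DMSO and 452, 439 and 422 in VE-822, and TIMP2 539, 540 and 444 and then 461, 458 and 462. MMP14 and TIMP2, named after their values were seen, were called lower only without DMSO 3 (-0.20 and -0.26, log2). IL6 was at most 0.0339 CPM and CXCL8 at most 0.0931 in any library, and neither was tested. Both were named after their values were seen.

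Replication-dependent histone genes went against the rest of the S phase programme. Their transcripts normally end in a stem-loop in place of a poly(A) tail, so a poly(A) library sees only the tailed part. Of 40 listed, 22 were tested, and 19 of these were higher and 2 lower, with a median log2 fold change of 2.32 (2.35 without DMSO 3, with 19 and 2 again). Of the 22, 3 passed the filter only through VE-822, where they could only be higher. Among the 18 that passed in both groups, 16 were higher and 2 lower. H2AC6 read 1.64, 1.75 and 2.38 CPM in DMSO and 26.2, 25.7 and 30.1 in VE-822 (3.82 ± 0.142). H2BC21 rose from 0.776, 0.766 and 1.07 CPM to 9.10, 9.58 and 11.8, and H4C8 from 1.52, 1.61 and 2.68 to 16.2, 16.97 and 19.1. The summed list was 20.3 to 25.3 CPM in DMSO and 125 to 152 in VE-822. H2AC20 and H4C3 fell, by 1.38 and 1.36 on the log2 scale. Copies of these genes are nearly identical, and how reads were shared between them is not given in the sources used here. Where only genes with a mean of 5 CPM or more were fitted, 6 members were higher and none lower.

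Most of the machinery that cuts the stem-loop end was lower. Of 11 genes tested, 9 fell and none rose, and all 11 fell without DMSO 3. SLBP, which binds the stem-loop, fell from 91.3, 89.7 and 64.2 CPM to 49.2, 45.8 and 43.4, the exonuclease ERI1 from 67.5, 65.3 and 54.6 to 30.7, 29.9 and 27.5, and NPAT, the activator of histone transcription, from 31.5, 31.6 and 29.9 to 21.4, 20.7 and 19.9. LSM10 and SYMPK were not called with all libraries. Of 21 matched histone promoters, 85.7% held a CCAAT box and 33.3% an E2F match. The box nearest the start is shown in capitals for 2 of the H2B genes named by size, at chr1:149886731-149886783 (minus strand) for H2BC21 and chr6:27146909-27146961 (minus) for H2BC12, which rose from 7.04, 7.04 and 6.64 CPM to 35.2, 34.4 and 44.5.
H2BC21: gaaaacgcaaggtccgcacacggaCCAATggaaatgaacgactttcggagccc
H2BC12: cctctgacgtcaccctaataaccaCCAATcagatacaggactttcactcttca

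Most enzymes that make the DNA precursors fell. Of 25 nucleotide synthesis genes, 18 were lower, 2 higher and 5 not called (19, 2 and 4 without DMSO 3). The ribonucleotide reductase subunit RRM2, made in S phase, fell from 129, 129 and 92.8 CPM to 26.3, 24.7 and 19.6. Its p53-driven counterpart RRM2B rose from 53.5, 51.0 and 62.2 CPM to 119, 115 and 118. The other gene that rose was SAMHD1, which breaks down deoxynucleotides, from 14.7, 16.3 and 14.2 CPM to 24.7, 24.1 and 23.0. Thymidine kinase TK1 fell by 2.04 (log2).

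Genes of the parallel ATM pathway and of end joining were mostly lower: 15 of 19 fell and 1 rose, with and without DMSO 3. MDC1, the scaffold at double-strand breaks, fell from 346, 337 and 275 CPM to 105, 101 and 92.2, and its docking histone H2AX from 38.1, 40.1 and 32.0 to 14.1, 12.7 and 12.8. The nuclease MRE11 fell from 70.0, 69.3 and 70.8 CPM to 35.9, 35.7 and 34. DNA ligase LIG4 rose by 0.34 (log2), while ATM, at 55.3 to 65.5 CPM in DMSO and 57.2 to 61.2 in VE-822, was not called. Of 15 translesion and other polymerases, 8 were lower and 1 higher (8 and 4 without DMSO 3). With all libraries, 36.5% of all genes from 20 to 100 CPM and 42.1% of those at 100 CPM or more were lower. The p53 target POLH, which copies past ultraviolet damage, rose from 40.4, 41.0 and 29.7 CPM to 68.1, 69.2 and 73.5. POLQ, the polymerase of microhomology joining, fell from 52.5, 51.3 and 53.03 CPM to 11.2, 11.3 and 9.63.

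HSPA6 (chromosome 1, 161524540 to 161526894), a strictly inducible HSP70 chaperone, headed the protein-coding genes named by size, which had a mean of 5 CPM or more and a call in both fits. It read 0.256, 0.256 and 0.133 CPM in DMSO and 8.75, 7.83 and 15.6 in VE-822, so VE-822 3 stood near 2 times the others. The log2 fold change was 5.64 ± 0.355, 5.35 without DMSO 3 and 5.27 without VE-822 3. HSPA1A, inducible by heat too, rose from 1.91, 1.89 and 0.897 CPM to 6.09, 6.64 and 9.81, and the small chaperone CRYAB from 3.43, 3.88 and 2.42 to 14.8, 14.99 and 17.9. Reads of HSPA1A and HSPA1B cannot be separated with confidence, and HSPA6 has a close pseudogene copy. The rest of the list did not follow: of 20 HSF1 targets and chaperones tested 3 rose, those just named, and 6 fell, and without DMSO 3 the numbers were 5 and 14 of 21. The constitutive HSP90AA1 fell from 3435, 3420 and 2739 CPM to 2176, 2111 and 2066, and the mitochondrial chaperonin HSPD1 from 1265, 1255 and 1190 to 864, 843 and 804. HSF1 itself was not called with all libraries. A heat shock element in the exact letters searched was found in 0.329% of matched promoters of genes tested. The share was 0.737% in those of genes that rose by at least 1 in both fits. No stretch with it before the start was obtained for HSPA1A, CRYAB or HSP90AA1. HSPA6 held one, in the stretch at chr1:161524442-161524502 (plus strand), with the match in capitals.
HSPA6: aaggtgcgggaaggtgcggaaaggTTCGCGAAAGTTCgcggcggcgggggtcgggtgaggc

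Of 20 genes of the unfolded protein response, many of them folding proteins of the endoplasmic reticulum, 8 fell and 1 rose (15 and 2 without DMSO 3). The share that fell with all libraries is near that over all genes of such levels, 36.5% from 20 to 100 CPM and 42.1% at 100 CPM or more. The chaperone HSP90B1 fell from 863, 842 and 737 CPM to 548, 538 and 524. XBP1, the factor spliced under stress, read 67.2, 66.4 and 197 CPM and then 48.6, 46.4 and 47.2, with a log2 fold change of -1.22 that was -0.53 without DMSO 3. DNAJB9, a co-chaperone, rose by 0.24.

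The ATF4 list moved most with DMSO 3. With all libraries 9 of 29 genes were lower and 1 higher, with a median log2 fold change of -1.13. Without DMSO 3, 17 were lower and 6 higher, with a median of -0.26. SLC7A11 read 13.03, 12.9 and 253 CPM in DMSO and 6.58, 6.16 and 6.91 in VE-822, and its log2 fold change was -3.83 ± 1.10 with and -1.02 without DMSO 3 (adjusted p = 1.28e-10). For ASNS these values were -3.31 ± 1.04 and -0.75. Both genes were below every DMSO library in every VE-822 library. With all 6 libraries the calls of SLC7A11, ASNS and CHAC1 were lost without any 1 of the VE-822 libraries. The glutamine transporter SLC1A5 fell in both fits, from 232, 229 and 372 CPM to 121, 120 and 111 (-1.24, and -1.01 without DMSO 3). DDIT4 turned direction, at -1.39 with all libraries, not called, and 1.88 without DMSO 3, called higher. ATF4 itself read 449, 448 and 1159 CPM and then 388, 373 and 387, and was called lower only without DMSO 3 (-0.26).

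Cholesterol genes changed with the same library in the other sense. With all libraries 1 of 23 was lower and 2 higher, and without DMSO 3, 19 were lower and 2 higher, with medians of -0.03 and -0.28. HMGCS1 read 851, 812 and 317 CPM in DMSO and 643, 642 and 689 in VE-822, so that the treated libraries lay between the controls. MVD, which makes isopentenyl diphosphate, had a log2 fold change of 0.02 with all libraries and -0.31 without DMSO 3. The sterol reductase TM7SF2 rose in both fits, from 7.38, 7.12 and 6.32 CPM to 18.8, 18.9 and 20.7, as did the cholesterol carrier STARD4 (0.57). EBP, a sterol isomerase, fell in both (-0.48 and -0.66).

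**Figure D5:**
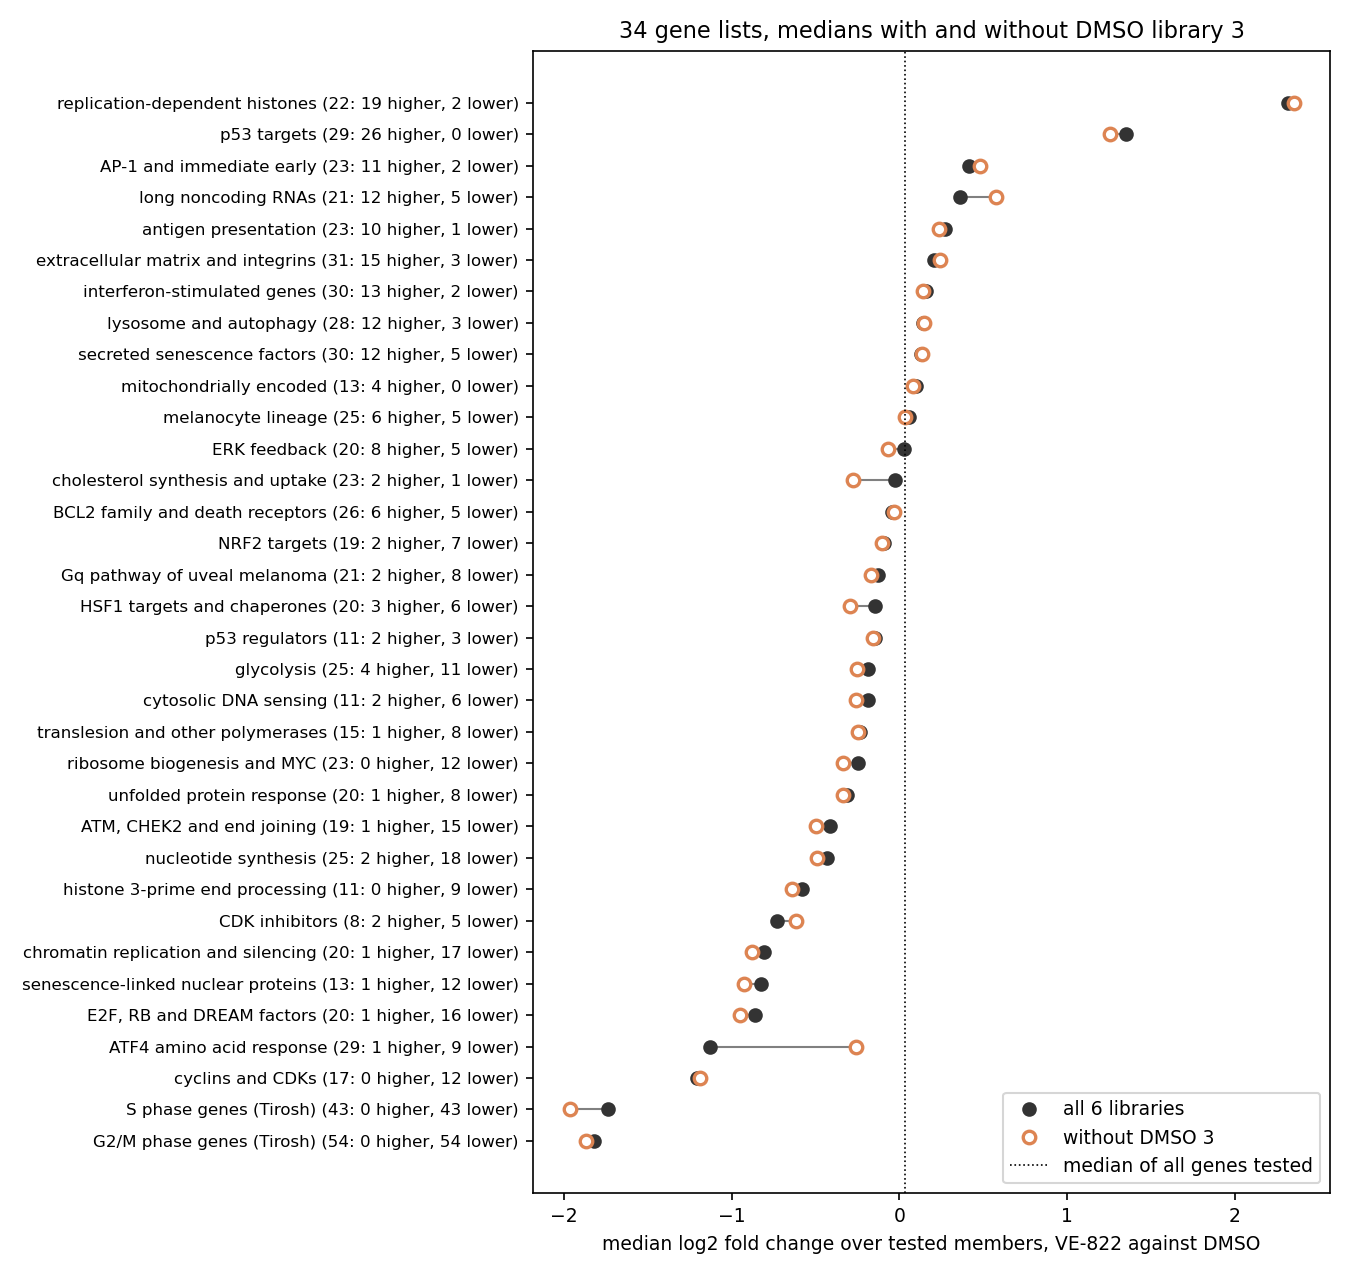
Median log2 fold change over the tested members of 34 gene lists, with all 6 libraries (filled) and without DMSO 3 (open), and the number of members called with all libraries beside each name. The histone and p53 target lists lie farthest to the right and the S and G2/M phase lists farthest to the left, and the ATF4 list moves most between the 2 fits.

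In glycolysis 11 of 25 genes were lower and 4 higher (16 and 5 without DMSO 3). Over all genes tested 19.6% were lower, but 36.5% of those from 20 to 100 CPM and 42.1% of those at 100 CPM or more. Lactate dehydrogenase LDHA fell from 827, 826 and 616 CPM to 542, 542 and 518. TIGAR, a p53 target that diverts sugar from glycolysis, rose from 4.77, 4.97 and 2.97 CPM to 11.4, 11.8 and 12.6. TXNIP, which blocks glucose uptake, read 21.6, 21.3 and 63.3 CPM and then 12.2, 10.9 and 9.40, with a log2 fold change of -1.71 ± 0.394 (-1.01 without DMSO 3), and its call was lost without VE-822 3. Of 19 NRF2 targets, 7 were lower and 2 higher (10 and 4 without DMSO 3). With all libraries the share that fell is near that over all genes from 20 to 100 CPM. The haem oxygenase HMOX1 rose from 4.95, 4.83 and 6.05 CPM to 7.52, 7.91 and 8.38.

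Immediate early genes, which growth factors and stress switch on within minutes, were higher in part. Of 23 tested, 11 rose and 2 fell (16 and 4 without DMSO 3). Over all genes tested 20.3% were higher and 19.6% lower (26.8% and 29% without DMSO 3), for this list and the next. EGR1 read 7.32, 6.45 and 7.53 CPM in DMSO and 38.2, 37.97 and 80.8 in VE-822, a log2 fold change of 2.88 ± 0.288 that was 2.42 without VE-822 3. The AP-1 subunit FOSB rose from 2.81, 2.96 and 2.94 CPM to 11.1, 10.4 and 14.3. MYC fell from 476, 493 and 552 CPM to 372, 363 and 337 and KLF6 by 0.19 (log2). A list of ERK feedback inhibitors, of ERK-driven factors such as ETV4 and of receptors such as EPHA2 split. Of its genes, 8 of 20 were higher and 5 lower (8 and 10 without DMSO 3), and their median was 0.03 with and -0.07 without DMSO 3. The receptor EPHA2 rose from 38.2, 37.1 and 40.0 CPM to 68.8, 66.4 and 67.2, while the ERK-driven factor ETV4 fell from 127, 129 and 135 to 88.1, 85.6 and 85.2.

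Of 21 genes of the Gq pathway that drives uveal melanoma, and of its other driver genes, 8 were lower and 2 higher (14 and 4 without DMSO 3). Most lay at 20 CPM or more, and the share that fell is near that over all genes of such levels. That share was 36.5% from 20 to 100 CPM and 42.1% at 100 CPM or more. Without DMSO 3, 3399 of those 5809 genes and 1250 of those 1995 were lower. GNAQ, at 108 to 114 CPM in DMSO and 100 to 108 in VE-822, was not called with all libraries. ARF6, the GTPase that carries the mutant signal, fell from 263, 259 and 254 CPM to 159, 156 and 153. The exchange factor RASGRP3 fell from 438, 427 and 497 CPM to 371, 364 and 346. Of 25 melanocyte genes, 6 were higher and 5 lower, near the 20.3% and 19.6% over all genes. Without DMSO 3, 9 and 10 of 26 were, beside 26.8% and 29% over all genes. The lineage factor MITF fell from 466, 448 and 449 CPM to 353, 342 and 320 (-0.42 ± 0.0516). The pigment enzyme DCT fell from 12.8, 12.3 and 12.3 CPM to 3.73, 3.99 and 4.85, and the melanosome protein GPNMB rose from 1181, 1181 and 1312 to 1550, 1553 and 1557. PMEL did not pass the test with all libraries (0.10, adjusted p = 0.144), although its groups did not overlap.

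Interferon-stimulated genes were low and moved in part. Of 30 tested, 13 were higher and 2 lower (14 and 3 without DMSO 3), and their summed level was 243 to 253 CPM in DMSO and 277 to 284 in VE-822. The shares over all genes, for this and the other lists here, were 20.3% higher and 19.6% lower (26.8% and 29% without DMSO 3). TRIM22, an antiviral ligase that p53 also drives, rose from 0.128, 0.102 and 0.125 CPM to 2.29, 2.38 and 2.65 (4.36 ± 0.168). STAT2 rose from 49.2, 50.6 and 57.3 CPM to 72.1, 72.7 and 75.4, and SAMD9L from 0.548, 0.494 and 0.59 to 1.48, 1.47 and 1.27. The other 15 tested were not called. Antigen presentation had 10 of 23 higher and 1 lower (12 and 5 of 24 without DMSO 3). The peptide transporter TAP1 rose from 4.97, 4.76 and 4.38 CPM to 16.2, 15.5 and 17.2 and HLA-B from 33.6, 32.2 and 30.4 to 69.7, 73.5 and 68.9, while the light chain B2M was not called with all libraries. Of 11 genes of cytosolic DNA sensing, 2 were higher and 6 lower in both fits. The sensor CGAS was at most 0.108 CPM and not tested, and the adaptor STING1 was not called. All 3 subunits of RNase H2 fell.

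Matrix and integrin genes rose more often than they fell, 15 against 3 of 31 tested. Over all genes 20.3% were higher and 19.6% lower (26.8% and 29% without DMSO 3). The 3 that fell were abundant and fell little: COL4A1 (-0.27, log2), COL4A2 (-0.19) and ITGB1 (-0.13). Without DMSO 3, 22 were higher and 5 lower of 34, and the 3 added, COL1A2, COL3A1 and ITGA4, named after their values were seen, were at most 0.136 CPM in any library. They entered that fit through the VE-822 libraries and so could hardly be lower. The integrin ITGA3 rose from 10.1, 10.6 and 11.7 CPM to 24.7, 24.4 and 24.4, the anchoring collagen COL7A1 from 2.72, 2.67 and 2.71 to 5.87, 6.02 and 6.38, and the laminin LAMB2 from 205, 205 and 237 to 317, 313 and 305. Among lysosome and autophagy genes 12 of 28 were higher and 3 lower (18 and 6 without DMSO 3), none by 1 or more on the log2 scale. The shares over all genes given above for the matrix list apply here too. Of 23 genes of ribosome biogenesis with MYC, 12 were lower and none higher (19 and 1 without DMSO 3), with nucleolin NCL falling from 1238, 1258 and 1102 CPM to 898, 824 and 790. Among all genes at 100 CPM or more 42.1% were lower with all libraries, and 36.5% from 20 to 100 CPM. Of the 13 mitochondrially encoded genes, 4 were higher and none lower (6 and 3 without DMSO 3). Cytochrome b, MT-CYB, rose from 4230, 4410 and 4301 CPM to 5359, 5314 and 5492. Scaled by library size alone, 8 of them were higher.

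Some of the largest changes lay outside the lists. PTCHD4, a p53-induced repressor of hedgehog signalling, rose from 1.45, 1.80 and 1.21 CPM to 14.3, 15.1 and 15.8 (3.34 ± 0.134, and 3.18 without DMSO 3). MVP, the main protein of vault particles, rose from 1.61, 1.47 and 1.75 CPM to 12.4, 12.7 and 12.2, and the phospholipid-binding ANXA1 from 5.18, 4.95 and 9.12 to 31.7, 32.1 and 37.5. Myostatin, MSTN, rose from 4.54, 4.199 and 6.04 CPM to 23.96, 23.2 and 29.9, and the growth factor NRG1 from 2.02, 1.86 and 2.16 to 10.2, 9.91 and 11.1. FAM111B, a protease of the S phase nucleus, fell from 37.9, 37.6 and 16.9 CPM to 6.69, 6.17 and 5.17, and ZGRF1, a helicase of crosslink repair, from 49.3, 47.4 and 46.2 to 9.48, 9.74 and 8.52. Among noncoding features the helicase pseudogene DDX12P fell from 67.7, 66.5 and 58.0 CPM to 15.96, 16.4 and 14.1, and the ankyrin pseudogene ANKRD20A11P rose from 2.66, 3.04 and 2.79 to 11.4, 11.2 and 11.03. Pseudogene values are uncertain because their parents share sequence.

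Set against MP38, the response of 92.1 differed in 10214 of 24958 genes tested in 1 joint fit of the 12 libraries (40.9%; 22.1% with the higher response in 92.1 and 18.8% with the lower), and in 49.1% without DMSO 3 of 92.1 (24.3% and 24.8%). The doses were set apart in each line, so line and dose cannot be told apart. MKI67, which fell in 92.1, read 111, 109 and 115 CPM in DMSO and 257, 250 and 252 in VE-822 in MP38, a difference of -3.39 ± 0.113 (log2, 92.1 minus MP38). E2F1 was lower under VE-822 in MP38 too, at 20.6, 21.1 and 23.7 CPM and then 17.4, 18.4 and 14.1, and differed in size, by -1.71 ± 0.245. CDKN1A read 10.5, 11.04 and 9.57 CPM and then 39.3, 40.3 and 52.6 in MP38, and its response was larger by 2.74 ± 0.158 in 92.1. The change within MP38 alone was not tested. HSPA6 read 22.3, 21.5 and 19.4 CPM in DMSO and 6.10, 6.84 and 5.84 in VE-822 in MP38, a difference of 7.42 ± 0.354. H2BC21 read 14.4, 14.2 and 14.5 CPM and then 11.1, 11.01 and 11.9 in MP38, a difference of 3.91 ± 0.161. CCND1, MITF, BAP1, NEAT1 and GDF15 had no called difference with all libraries. Without DMSO 3 of 92.1, GDF15 differed by 2.14 (adjusted p = 2.09e-07, against 0.248 with it), CCND1 by -0.16 (0.0147) and BAP1 by -0.19 (0.00522).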

How the data were processed

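RNA of 92.1 and MP38 cells after 72 h in VE-822 or DMSO was sequenced from poly(A) libraries, 3 a group. The deposited counts per gene were made by the authors from reads, with cutadapt 4.8, STAR 2.7.11a, featureCounts 2.0.6 and the build GRCh38.p13 named in the submitters' processing notes; strand setting, annotation release and the handling of shared reads are not given in the sources used here. The authors' deposited FPKM values equal these counts scaled by feature length and library total, and served only to check the table.

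Counts were fitted with edgeR 4.0.16 (R 4.3.3) by the quasi-likelihood F test after filterByExpr (at least 10 counts at the median library, 0.0822 CPM) and TMM scaling, with Benjamini-Hochberg adjustment over all genes tested and an adjusted p under 0.05. Printed fold changes are log2, VE-822 over DMSO. The response of the lines was compared by an interaction term over 12 libraries. Both fits were tested on simulated data. The alternatives were DESeq2 1.42.0, other scalings and filters, a robust fit, a replicate block, and each library left out. CPM values use library totals.

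The members and the 34 gene lists were chosen with earlier results of these data known. Named genes are the 15 largest changes each way among protein-coding genes with a mean of 5 CPM or more, called in both fits and with groups that do not overlap; up to 5 called members of a list each way by adjusted p, and any member of a list of 13 or fewer; 24 genes of general interest; 5 noncoding features each way; and the 10 highest and 10 lowest in DMSO 3. Named after their values were seen were ATF4, ATM, B2M, CCNE1, CCNG1, DNMT1, E2F4, ESRP1, FOXM1, GNAQ, HSF1, LDHA, MALAT1, MCL1, MYBL2, NCL, RASGRP3, RB1, RBL2, TYRP1, XBP1 and those marked so in the text. A few genes that the rule names are not reported here. Promoter sequences are from RefSeq (GRCh38.p14), joined by symbol.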

Additional observations from a re-analysis of the deposited data

Results flagged for a closer look

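The response to VE-822 differed between 92.1 and MP38, by an interaction term in a joint edgeR fit of the 12 libraries, in 19 of 24 genes of general interest, beside 40.9% of all genes tested. The 24 were chosen with earlier results of these data known, so their share is no measure of enrichment. The values below are the log2 response of 92.1 minus that of MP38. Dose was set in each line apart, so line and dose cannot be told apart.

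Proliferation genes had negative differences, at -3.39 for MKI67, -3.3 for TOP2A, -2.72 for CCNB1, -2.83 for HMGB2, -2.15 for LMNB1, -2.2 for CHEK1, -1.71 for E2F1 and -1.6 for EZH2. In MP38 the cyclin CCNB1 read 41.1 to 42.3 CPM in DMSO and 101.6 to 109.9 in VE-822, where in 92.1 it fell. Genes of the p53 pathway had positive ones, at 2.74 for CDKN1A and 1.25 for MDM2. MDM2 read 44.1 to 46.4 CPM and then 51.62 to 54.97 in MP38.

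The chaperone HSPA6 differed by 7.42, the histone gene H2BC21 by 3.91 and the immediate early gene EGR1 by 1.62. TXNIP differed by -5.14: in MP38 it read 16.6, 17.9 and 27.3 CPM in DMSO and 228, 225 and 230 in VE-822. PMEL differed by -0.51, and ATR by 0.26, a call that was lost without each of the VE-822 libraries of 92.1 and without 4 of the MP38 libraries.

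For SLC7A11 and ASNS the differences were -3.79 and -3.24 with all libraries and -1.001 and -0.70 without DMSO 3 of 92.1.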

How the results depend on the processing

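The counts of higher and lower genes stayed within 1.5 times 4658 and 4498 under 6 of the 7 alternatives that keep all libraries. Fitted alone, genes with a mean of 5 CPM or more gave 2915 higher and 2802 lower, with 11106 genes tested. Leaving out 1 library gave 3399 to 6377 higher and 3343 to 6899 lower genes, both maxima without DMSO 3 and both minima without VE-822 3. The difference between lines gave 9259 to 11912 genes when 1 library was left out. Library size scaling alone gave 5684 higher and 3534 lower.

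Without DMSO 3 the direction turned for DDIT4, SLC1A4, SESN2, ATF3 and MVD, none of them called with all libraries. Over each 92.1 library left out in turn, the log2 fold change ran from -1.94 to 1.88 for DDIT4, from -1.72 to 0.55 for SLC1A4, from -0.93 to 1.04 for SESN2, from -0.47 to 1.35 for ATF3 and, with the low end this time without DMSO 3, from -0.31 to 0.23 for MVD. The cause was not tested. The ATF4 list had 9 lower genes with all libraries, 17 without DMSO 3, 4 in DESeq2 and 1 in a robust fit, in which SLC7A11 (adjusted p = 0.13), ASNS (0.153), GDF15 (0.0804) and TXNIP (0.0646) were among the lost calls. Of the values for single genes, 3 lost their call under DESeq2's size factors, 5 with no filter, 5 in DESeq2, 11 in the robust fit, 16 under library size scaling and 17 among genes of 5 CPM or more. With 1 library left out, 16 and 17 calls were lost without DMSO 1 and 2, and 29, 35 and 33 without VE-822 1, 2 and 3, against none without DMSO 3. NEAT1 lost its call in DESeq2 (adjusted p = 0.06).

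With the replicate number as a block, 4429 genes were higher and 4333 lower, the line difference gave 9881, and SLC7A11, ASNS, CHAC1, TFDP2 and ITGB1 lost their calls while USP7 gained one; no other named gene changed its call. The labels give no origin for these numbers, and deviations of same-numbered libraries correlated at 0.0406, 0.0656 and 0.0822, each below 0.1, although every library correlated best with its own number. They were therefore not taken as pairs.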
